A study of Bos taurus with 16 samples.

Results

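The arrays described here carry kidney RNA of cattle (Bos taurus) that was labelled without prior amplification, which the labels call round 0. They were taken as the arrays labelled Round 0 and number 4 of the 16 arrays in the series, namely 2 kidney RNAs, called 1 and K, each hybridised once with kidney in Cy3 and once with kidney in Cy5. Round 0 is total RNA, isolated with Trizol and copied into amino-allyl cDNA with Superscript III before the dyes were coupled. The other 12 arrays hold kidney RNA after linear amplification, for which the labels give 1, 2 or 3 rounds, again as RNAs 1 and K with dyes swapped. Every array carried the same reference standard RNA in its other channel. That reference had itself gone through 2 rounds of amplification, and the tissues in it are not named in the labels. At round 0 the comparison therefore sets unamplified kidney against amplified reference, and kidney against reference and unamplified against amplified RNA cannot be told apart within it. Nothing in the labels says that RNAs 1 and K came from separate animals, so the spread between them may be technical. The p-values measure that spread pooled over all rounds, the amplified ones included. A common reference also has no spread of its own in this design.

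The kidney filters blood in the glomerulus, a tuft of capillaries wrapped by podocytes, and recovers most of the filtrate along the tubule. The proximal tubule takes back water, amino acids, phosphate and peptides through a brush border rich in channels, carriers and peptidases, and it draws most of its energy from fatty acids. The loop of Henle, distal tubule and collecting duct then adjust sodium, calcium, acid and water under hormonal control. Adult tubule cells divide rarely.

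On the 4 round 0 arrays between 14242 and 15947 of 16896 spots had a ratio, and the duplicate spots of a feature (a spotted cDNA clone) correlated at 0.714 to 0.813. Values below are kidney-to-reference ratios on the log2 scale, after subtraction of the array median, so that 0 stands for the median feature of an array. The files do not state which dye stands on top of the deposited ratio. Cy5 over Cy3 was taken as likely, because the 45 features of the kidney tubule lists then had medians of 2.19 and 2.03 on the arrays with kidney in Cy5 and, before turning, -1.96 on both arrays with kidney in Cy3. The side of the reference on which the tubule lists lie is therefore a choice and not a finding, and if the ratio ran the other way every sign below would turn.

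Unamplified kidney differed widely from the reference. Of 5537 features tested with limma, 2142 (38.7%) had a mean ratio different from 0 at an adjusted p under 0.05, with 1088 higher (19.6%) and 1054 lower (19%) in kidney than in reference. The median size of a ratio was 0.58, against a median gap of 0.21 between RNAs 1 and K and a median standard error of 0.22. Among the called features 1240 lay past 2-fold, 90 past 8-fold (59 higher and 31 lower) and 10 past 32-fold (9 higher and 1 lower), while 902 lay under 2-fold. All 4 arrays had the same sign for 1922 (95.5%) of the 2013 called features with a value on each, and for 3315 (64.8%) of all 5115 such features. The calls rest on these same arrays, so that equal signs among called features are favoured by the call itself. The threshold fell between PRF1 and IDUA, with adjusted p of 0.0499 each, and GLO1 and CTDSP2, with adjusted p of 0.0502 and 0.0503. The balance of higher and lower features depends on the centring. Without it the median of all features moved to 0.65, and 1974 features (35.7%) were called, 1782 higher (32.2%) and 192 lower (3.47%). With RNA 1 left out 1047 features were called and with RNA K left out 977, where the remaining RNA is assumed to vary like those of the other rounds.

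Array values are given below with kidney in Cy3 first and kidney in Cy5 second. The feature farthest above the reference was GPX3, the glutathione peroxidase that proximal tubule cells secrete into plasma. Its log2 ratios were 5.99 and 6.65 on the arrays of RNA 1 and 6.86 and 6.998 on those of RNA K, with a mean of 6.62 ± 0.43 (SD, n = 2) and an adjusted p of 0.000126. The values of the 4 arrays lay close together, and the mean corresponds to a 98.7-fold ratio. ENPEP, the brush border aminopeptidase that cleaves acidic residues from peptides such as angiotensin II, had ratios of 5.89 and 5.32 for RNA 1 and 5.56 and 5.54 for RNA K. Its mean of 5.58 ± 0.04 (SD, n = 2, adjusted p 4.8e-05) is a 47.7-fold ratio, and the RNAs differed by far less than the distance to the reference. PDZK1IP1, a small membrane protein of the proximal tubule, spread more, with 5.82 and 5.14 for RNA 1 against 3.08 and 4.63 for RNA K. All 4 values were still well above 0 (mean 4.67 ± 1.15, adjusted p 0.000483).

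These and the features that follow are the 12 highest called ones of 1 gene with a positive value on all 4 arrays, so that features with fewer arrays, such as S100G, are left for the lists. MGP, the matrix Gla protein that inhibits calcification, stood at 5.40 and 6.21 in RNA 1 and 5.19 and 6.08 in RNA K. In both RNAs the Cy5 array gave the higher value. ABCA1, which exports cholesterol from cells, stood at 5.83 and 5.70 in RNA 1 and 6.10 and 5.81 in RNA K, while of its 3 other features on the array 1 was called higher, at 0.76, and 2 were not called, at 0.30 and 0.95. CAPN6, a calpain without protease activity, had ratios of 5.67 and 5.82 in RNA 1 and 6.94 and 5.38 in RNA K, and its other clone averaged 4.08. GATA3, a transcription factor of the developing collecting system, had 4.66 and 4.58 in RNA 1 and 7.07 and 4.24 in RNA K, so that the Cy3 array of RNA K lay apart from the other arrays. PGLS, the lactonase of the pentose phosphate route, had 4.86 and 5.44 in RNA 1 and 6.21 and 5.27 in RNA K. H19, an imprinted noncoding RNA best known from fetal tissue, stood at 4.44 and 4.80 in RNA 1 and 4.94 and 4.32 in RNA K. SLC26A2, a sulfate transporter, averaged 4.57 ± 0.44, the zinc finger gene ZNF350 4.56 ± 0.20 and LOC338050 5.20 ± 0.05 (SD, n = 2 each). The adjusted p of these 12 features ran up to 0.00153, that of SLC26A2.

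**Figure D1:**
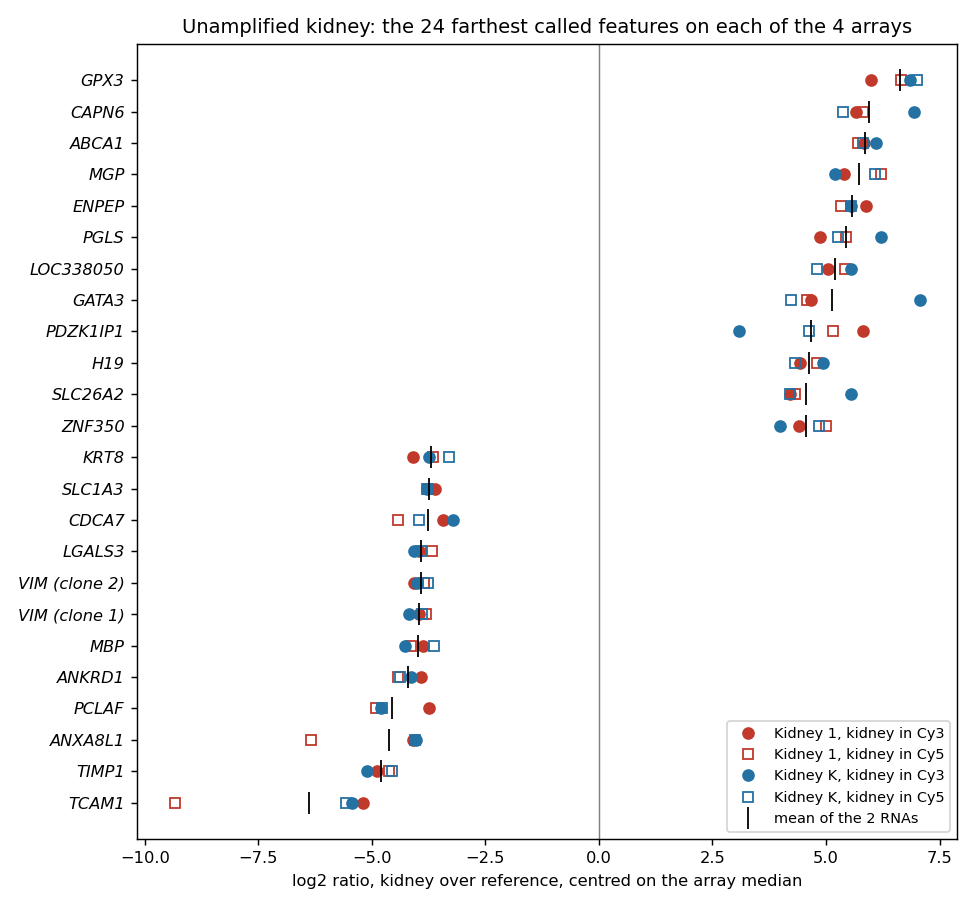
Log2 ratio of kidney over reference (horizontal axis) for the 12 features farthest above and the 12 farthest below the reference (rows) among those of 1 gene that were called and had the same sign on all 4 arrays, with a point for each round 0 array and a bar at the mean of the 2 RNAs. GPX3 tops the plot at 6.62 and TCAM1 ends it at -6.38, where a single array lies at -9.34.

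The features farthest below the reference were of varied kinds. TCAM1, a cell adhesion molecule known from mouse testis, had ratios of -5.19 and -9.34 in RNA 1 and -5.43 and -5.56 in RNA K. The Cy5 array of RNA 1 lay far below the other arrays, and the mean was -6.38 ± 1.25 (SD, n = 2, adjusted p 0.000162). TIMP1, a secreted inhibitor of matrix metalloproteinases, had -4.88 and -4.63 in RNA 1 and -5.11 and -4.56 in RNA K, a mean of -4.79 ± 0.06 (adjusted p 9.9e-05). PCLAF, a PCNA-binding protein made in dividing cells, had -3.75 and -4.90 in RNA 1 and -4.80 and -4.78 in RNA K. VIM, the intermediate filament of mesenchymal cells, was measured by 2 clones that gave -3.96 ± 0.11 and -3.92 ± 0.05 (SD, n = 2 each). LGALS3 (galectin-3) and SLC1A3, a glutamate transporter, averaged -3.91 ± 0.13 and -3.74 ± 0.07, and KRT8, a keratin of simple epithelia, -3.70 ± 0.25.

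The remaining low features were ANXA8L1, of the annexin family, at -4.63 ± 0.83, ANKRD1, a stress-induced muscle protein, at -4.21 ± 0.07, CDCA7, induced in dividing cells, at -3.76 ± 0.24, and MBP, the myelin basic protein, at -3.98 ± 0.04. The MBP feature was the exception among the 24 in what followed from leaving out an RNA. Its adjusted p of 0.0101 became 0.0807 without RNA 1 and 0.0785 without RNA K, whereas the other 23 kept direction and call under every alternative setting that tested them, with a largest adjusted p of 0.025. Of the 12 high features 5 had another tested clone of the same gene, with a matching call for 3 features and an opposed call for 0. Of the 12 low features 6 had another clone, with a matching call for 5 features, 2 of them the clones of VIM, and an opposed call for 1, the MBP feature.

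The tubule lists were read gene by gene, since 32 of their 135 symbols had a feature on the array and the rest were not measured here. Over the 45 features of these 32 genes 30 were higher in kidney, 5 lower and 10 not called, against 38.7% called over all features, and the median ratio was 1.98 against -0.02 over all features (2.66 against 0.65 without centring). In tissue RNA, fewer cells of a type and less RNA per cell cannot be told apart, here or in the lists that follow. As the direction of all ratios was set on these lists, their counts show how evenly the members lie on 1 side rather than which side it is.

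Of the 11 proximal tubule features 7 were higher and 1 lower (63.6% and 9.09%, against 19.6% and 19% of all features). AQP1, the water channel, was the most even member, at 4.39 and 4.49 in RNA 1 and 4.50 and 4.37 in RNA K (adjusted p 7e-05). The arrays hardly differed. PDZK1, a scaffold that holds transporters at the apical membrane, averaged 4.14 ± 0.22, SLC7A7, the basolateral exporter of cationic amino acids, 2.85 ± 0.31, SLC27A2, a fatty acid transporter and acyl-CoA synthetase, 1.68 ± 0.15, and FABP3, a fatty acid-binding protein, 0.70 ± 0.07 (SD, n = 2 each). RBP4, the retinol carrier that the liver secretes, went the other way with -1.49 and -1.87 in RNA 1 and -1.35 and -1.37 in RNA K. All 4 values lay below 0 (adjusted p 0.0258, and 0.182 without centring). ASS1, the urea cycle and arginine enzyme, at -0.11, and the GGT1 clones at -0.28 and -0.61 were not called.

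Of the 8 features of brush border peptidases 5 were higher (62.5%, against 19.6% of all features) and 0 lower. Beside ENPEP these were DPP4, dipeptidyl peptidase 4, at 4.53 ± 0.31, ANPEP, aminopeptidase N, at 3.98 ± 0.23, and both clones of MME (neprilysin), at 3.38 ± 0.13 and 2.11 ± 0.06 (SD, n = 2 each). DPP4 rested on 3 arrays, with 4.75 in RNA 1 and 5.68 and 2.93 in RNA K. ANPEP read higher with kidney in Cy5 in both RNAs, at 3.49 and 4.80 in RNA 1 and 3.45 and 4.19 in RNA K. ACE, the angiotensin-converting enzyme, could not be placed. Its values were -0.22 and -5.12 in RNA 1 and 0.99 and -1.16 in RNA K, and the mean of -1.38 ± 1.83 was not called (adjusted p 0.0995).

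Of the 28 features of the loop of Henle and distal nephron 18 were higher and 4 lower (median 1.87). These are shares of 64.3% and 14.3%, against 19.6% and 19% of all features. S100G, the calcium-binding protein of calcium-transporting cells, had 4.70 and 5.34 in RNA 1 and a single value of 5.16 in RNA K. Its second clone averaged 3.13 ± 0.02, also called. The sodium channel subunits SCNN1A and SCNN1G averaged 4.38 ± 0.50 and 1.98 ± 0.17, and HSD11B2, which shields the mineralocorticoid receptor from cortisol, 3.95 ± 0.13. CA2, a carbonic anhydrase, averaged 3.17 ± 0.16, and the 3 clones of AQP3, a basolateral water channel of the collecting duct, 2.97, 2.73 and 1.26, all called. KRT19 at 2.18, SPP1 (osteopontin) at 2.15 and 1.80, and the tight junction protein CLDN4 at 0.99 were called higher too. The calcium channel TRPV6 at 0.06 and the magnesium channel TRPM6 at -0.82 were not called.

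The 4 low features of that list were KRT8, both clones of KRT18 and 1 clone of GATA2. KRT18, the partner of KRT8, had -2.62 and -3.38 in RNA 1 and -2.65 and -2.66 in RNA K for the first clone, and a mean of -2.74 ± 0.23 for the second. These keratins mark simple epithelia in general and are also on the placenta list. GATA2 had 4 clones that gave 2.32 ± 0.05 (higher), 0.89 ± 0.66 (higher), 0.54 ± 1.23 (not called) and -0.79 ± 0.16 (lower). The level of GATA2 against the reference thus depends on the clone.

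A number of endothelial genes were higher in kidney as well. Of the 17 features on the list of glomerulus and vessels 9 were higher (52.9%, against 19.6% of all features) and 0 lower, with a median of 0.96. TEK, the angiopoietin receptor, had 3.73 and 4.07 in RNA 1 and 3.92 and 3.53 in RNA K (adjusted p 0.000135). PECAM1, the junctional protein CD31, had 2.70 and 3.48 in RNA 1 and 4.17 and 2.97 in RNA K, and its second clone averaged 0.96 ± 0.11, also called. The clones of KDR, a VEGF receptor, averaged 3.10 ± 0.15 and 2.78 ± 0.08. CDH5 (VE-cadherin) averaged 1.70 ± 0.04, the basement membrane collagen COL4A1 1.65 ± 0.05 and 1.49 ± 0.03, and VEGFA, which podocytes and tubules secrete, 1.09 ± 0.02 (SD, n = 2 each). Of podocyte genes the list had SYNPO, PLA2R1 and CD2AP on the array, at -0.26, -0.27 and 0.35, and none of them was called. The endothelial genes ENG at 0.83, PLVAP at 0.25 and FLT1 at -0.68 were not called either.

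**Figure D2:**
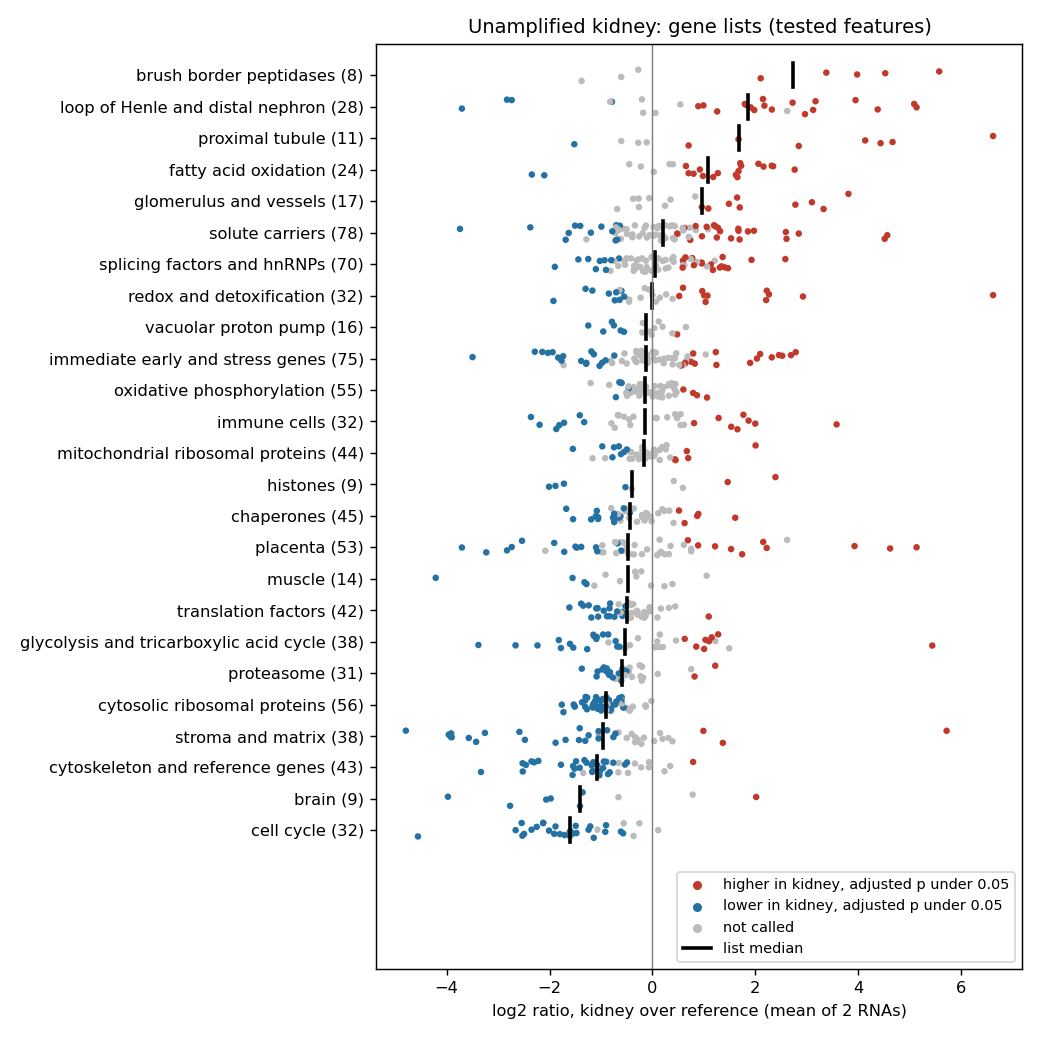
Mean log2 ratio of kidney over reference (horizontal axis) for each tested feature of the gene lists with at least 8 tested features (rows, number tested in brackets), coloured by call, with a bar at the list median. The brush border peptidases have the highest median, 2.74, and the cell cycle genes the lowest, -1.60.

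Genes on the list of fatty acid oxidation stood mostly above the reference. The list includes FABP3 and SLC27A2 of the proximal tubule list, on which the direction of the ratios was set. Of 24 features 17 were higher (70.8%, against 19.6% of all features) and 2 lower, with a median of 1.08, and without centring the counts were 18 and 1. HADH, a dehydrogenase of short-chain oxidation, had 2.72 and 2.99 in RNA 1 and 2.53 and 2.83 in RNA K (adjusted p 0.000114). ACSL1, which activates long-chain fatty acids, averaged 2.35 ± 0.14, and the 2 clones of CPT1A, the carnitine gate into mitochondria, 2.32 ± 0.04 and 2.06 ± 0.16. The carnitine carrier SLC25A20 at 1.27, CPT2 at 0.98 and the dehydrogenases ACADS at 1.65 and ACADVL at 0.92 were called higher as well. The 2 low features need reading by array. HADHA had -4.47 and 0.56 in RNA 1 and a lone value of -2.73 in RNA K, so that the arrays differed in sign, and without centring it was not called (adjusted p 0.203). ECI2, an enoyl-CoA isomerase, was low on all 4 arrays for 1 clone, between -2.30 and -1.78, and high on all 4 for the other, between 0.91 and 2.24.

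Sugar metabolism was split. Of 38 features of glycolysis and the tricarboxylic acid cycle 8 were higher and 17 lower, with a median of -0.53. These are shares of 21% and 44.7%, against 19.6% and 19% of all features. Without centring 13 were higher and 7 lower, with a median of 0.14. LDHA, which makes lactate from pyruvate, had -2.48 and -2.68 in RNA 1 and -3.02 and -2.46 in RNA K (adjusted p 0.000126). PKM, pyruvate kinase, averaged -2.23 ± 0.10, GAPDH -1.78 ± 0.01, and the malic enzyme ME1 -3.38 ± 0.54 (SD, n = 2 each). The highest member was a clone of PGLS, of the pentose phosphate route, at 5.44, while its other clone, at -0.52, was not called. Among the other high members were DLD at 1.15 and 1.10, SUCLG2 at 1.03 and 1.01 and PDHA1 at 1.28. However, a second clone of PDHA1 was called lower at -0.64, and the third clone of SUCLG2, at 0.15, was not called. Of 55 features of oxidative phosphorylation 4 were higher and 5 lower (7.27% and 9.09%, against 19.6% and 19% of all features), with a median of -0.14. Without centring 15 were higher and 0 lower, with a median of 0.53. COX17, a copper chaperone of cytochrome oxidase, averaged 0.87 ± 0.21 and COX7A2, a subunit of it, -0.71 ± 0.07. The call of COX17 was lost under 1 of 16 alternative settings. That of COX7A2 was lost under 4, among them without centring, where its mean was -0.03. Of 44 mitochondrial ribosomal protein features 5 were higher (11.4%), led by MRPL20 at 2.01 ± 0.10, and 8 lower (18.2%), with a median of -0.17. Without centring 7 were higher and 0 lower (median 0.50). No mitochondrially encoded gene was among the tested features.

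Most genes of cell division on the array were lower in kidney. Of 32 features on the cell cycle list 27 were lower (84.4%, against 19% of all features) and 0 higher, with a median of -1.60, and without centring 14 were lower and 0 higher, with a median of -0.92. UBE2C and CDC20, which drive exit from mitosis, averaged -2.54 ± 0.06 and -2.66 ± 0.37. The replication helicase subunits MCM4, MCM2 and MCM7 averaged -2.25, -2.12 and -1.59, and PCNA, the replication clamp, -2.12 ± 0.01. DUT at 0.11 and UBE2S at -0.37 were among the 5 that were not called. H2AZ1, a histone variant on both the cell cycle list and the histone list, had clones at -2.01 ± 0.04 and -1.88 ± 0.12. Of the 9 histone features 4 were lower (44.4%, against 19% of all features). The 2 higher ones (22.2%, against 19.6%) were H2BC21 at 2.39 ± 0.02 and H1-2 at 1.46 ± 0.22. The histone median was -0.40, and without centring 3 were lower and 4 higher, with a median of 0.28.

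Stromal and cytoskeletal genes lay mainly below the reference too. Of 38 stroma and matrix features 21 were lower (55.3%, against 19% of all features) and 3 higher, with a median of -0.96, against 11 lower and 5 higher without centring (median -0.29). CD44, the hyaluronan receptor, averaged -3.57 ± 0.36 and -3.26 ± 0.11 over its 2 clones, FN1 (fibronectin) -2.59 ± 0.09 and -2.48 ± 0.08, and FMOD, a collagen-binding proteoglycan, -3.90 ± 0.01 on 3 arrays. The fibrillar collagen COL1A2 was lower by 2 clones, at -1.30 and -1.05, and COL3A1 at -0.33 was not called. Beside MGP the high members were FBLN5, an elastic fibre protein, at 1.37 ± 0.03 and DCN (decorin) at 0.99 ± 0.09. The call of DCN was lost under 3 of 16 alternative settings. Of 43 cytoskeleton and reference gene features 31 were lower and 1 higher (72.1% and 2.33%, against 19% and 19.6% of all features), with a median of -1.07. Without centring 10 were lower and 3 higher (median -0.35). ANXA2 had -3.39 and -3.27 in RNA 1 and -3.37 and -3.31 in RNA K. TUBA1A and TMSB10 averaged -2.52 ± 0.09 and -2.52 ± 0.30. SDHA, a subunit of succinate dehydrogenase that serves as a reference gene, was the high member at 0.79 ± 0.12, a call that was lost under 6 of 16 alternative settings.

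The lists of cytosolic ribosomal proteins, translation factors, proteasome and chaperones had medians below 0, and most of their lower calls rested on the centring. The list of splicing factors and hnRNPs was split. Of 56 cytosolic ribosomal protein features 43 were lower (76.8%) and 0 higher, against 19% and 19.6% of all features. They lay between -1.76 for RPS20 and -0.02 for RPL15, with a median of -0.90. Without centring 2 were lower and 0 higher, and the median was -0.21, while the array median itself moved by 0.65. Translation factors had 18 lower and 1 higher of 42 (42.9% and 2.38%, median -0.49), against 1 lower and 4 higher without centring (median 0.14). EIF4A2 was the high member at 1.10 ± 0.12, while EIF4A1, its close paralog, averaged -1.35 ± 0.16. The call of EIF4A1 was lost under 3 of 16 alternative settings. Proteasome features had 14 lower and 2 higher of 31 (45.2% and 6.45%), against 0 and 3 without centring (medians -0.58 and 0.09). Chaperones had 16 lower and 5 higher of 45 (35.6% and 11.1%), against 2 and 7 without centring (medians -0.44 and 0.24). Relative to the array median P4HB, which forms disulfide bonds in the endoplasmic reticulum, averaged -1.68 ± 0.16 and TRAP1, a mitochondrial HSP90, 1.61 ± 0.05. Splicing factors and hnRNPs had 16 higher and 9 lower of 70 (22.9% and 12.9%, against 19.6% and 19% of all features), with a median of 0.04. Without centring 23 were higher and 1 lower (median 0.72). SNRNP70 at 2.59 ± 0.12 and SF3B1 at 1.93 ± 0.10 were the highest, and the second clone of SNRNP70, at -0.42, was not called.

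Of the 78 tested solute carrier features, which include SLC7A7 and SLC27A2 of the proximal tubule list, 22 were higher and 13 lower (28.2% and 16.7%, against 19.6% and 19% of all features), with a median of 0.20. Without centring 32 were higher and 5 lower, with a median of 0.86. SLC40A1, the iron exporter ferroportin, had 4.53 and 3.91 in RNA 1 and 5.36 and 4.26 in RNA K (adjusted p 7.5e-05). SLC17A7, a vesicular glutamate transporter, was low with a wide gap between dyes in both RNAs, at -3.31 and -1.55 in RNA 1 and -3.10 and -1.54 in RNA K. The glucose transporter SLC2A3 averaged -1.69 ± 0.14 and -0.71 by its clones, both called. Of 16 features of the vacuolar proton pump, which intercalated cells use to secrete acid, 1 was higher and 6 lower (6.25% and 37.5%). Their median was -0.12, and 0.56 with 3 higher and 0 lower without centring. ATP6AP2 at 0.48 ± 0.11 was the high member, a call that was lost under 8 of 16 alternative settings. The lowest was ATP6V1B2, at -1.25 ± 0.23. Redox and detoxification genes had 11 higher and 9 lower of 32 (34.4% and 28.1%, against 19.6% and 19% of all features), with a median of -0.01. Without centring 13 were higher and 1 lower (median 0.67). Catalase (CAT) averaged 2.93 ± 0.15 and the methionine sulfoxide reductase MSRA 2.27 ± 0.22, while thioredoxin (TXN) averaged -1.92 ± 0.02 and GPX4, the peroxidase of membrane lipids, -1.30 ± 0.11, a call that was lost without centring (adjusted p 0.131).

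Of 32 immune features 8 were higher and 7 lower, shares of 25% and 21.9% that are near those of all features (19.6% and 19%). Their median was -0.15, and without centring 10 were higher and 4 lower, with a median of 0.37. The complement genes C1QA, C1QB and C1QC, which macrophages make, were called higher by all 5 of their features, from 1.29 to 2.001, with AIF1 at 1.77 and CD74 at 0.81. The macrophage markers CD68 at 0.61, CD14 at 0.55 and -0.37, and CD163 at -0.66 were not called. IKZF3, a lymphocyte transcription factor, had 3.90 in RNA 1 and 3.27 in RNA K on the Cy5 arrays and no value on the Cy3 arrays, and its other clone at -0.80 was not called. IGHM, the heavy chain of IgM, averaged -2.36 ± 0.07, CORO1A -2.19 ± 0.01 and LCP1, an actin bundler of white blood cells, -1.87 ± 0.21 and -1.41. The small SD of CORO1A hides a wide gap between the dyes of RNA 1. Its values were -0.80 and -3.56 in RNA 1 and -2.14 and -2.27 in RNA K. The blood list had a single tested feature, GYPC of the red cell membrane, at 0.66 ± 0.54 and not called.

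Placenta genes had 10 features higher and 14 lower of 53 (18.9% and 26.4%, against 19.6% and 19% of all features), with a median of -0.47. Without centring 11 were higher and 7 lower, with a median of 0.18. GATA3 and H19, its highest members, and KRT8 and KRT18, among its lowest, are no markers of that tissue alone. HSD3B1, an enzyme of steroid synthesis, averaged -3.23 ± 0.01 and -2.54 ± 0.11 by its 2 clones, and PHLDA2, an imprinted growth regulator, 2.16 ± 0.16. Brain genes had 6 lower and 1 higher of 9 (66.7% and 11.1%), and 3 and 1 without centring (medians -1.41 and -0.73). The high feature, at 2.02, and the lowest, at -3.98, are opposed clones of the same gene, MBP. Among the other low ones were UCHL1 at -2.77 ± 0.04 and CNP at -2.07 ± 0.10. Muscle genes had 4 lower (28.6%) and 0 higher of 14, and 2 and 2 without centring (medians -0.48 and 0.19). After ANKRD1 the low ones were led by TPM1 at -1.55 ± 0.30 and TPM3 at -1.32 ± 0.01. The call of TPM3 was lost under 4 of 16 alternative settings. Of 3 liver features 1 was lower, which is RBP4, and of 4 testis and ovary features 1, which is TCAM1. The part that the makeup of the reference has in these low values was not tested, since its tissues are not named.

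Of 75 features of early response and stress genes 17 were higher and 17 lower (22.7% each, near the 19.6% and 19% of all features), with a median of -0.13. Without centring 25 were higher and 6 lower, with a median of 0.54. FOSB, a partner of JUN in the AP-1 factor, had 2.67 and 2.68 in RNA 1 and 2.80 and 3.00 in RNA K (adjusted p 0.000114). The 3 clones of TXNIP, a glucose-induced arrestin, lay between 2.46 and 2.69, and of the 4 clones of DUSP6, a phosphatase of ERK, 3 were called higher at 2.32, 2.03 and 1.90 and the fourth, at 0.60, was not called. JUNB was lower by both clones, at -2.29 ± 0.21 and -1.29, and CDKN1A, the cell cycle inhibitor p21, at -2.14 ± 0.16. NR4A2, an orphan nuclear receptor, was measured on the Cy3 arrays alone, at -1.51 in RNA 1 and -5.49 in RNA K. Its mean of -3.50 ± 2.81 passed narrowly (adjusted p 0.0472, and 0.187 without centring). FOS at -0.54 was not called, and EGR1 was called at 0.55.

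RNAs 1 and K gave much the same picture. Their ratios correlated at r = 0.814 across the 5537 features, which share the reference, the clones and the array print and are no independent replicates. Between single arrays r ran from 0.573 to 0.819, and it was higher between the arrays of the same dye, at 0.788 in Cy3 and 0.819 in Cy5, than between the 2 arrays of an RNA, at 0.678 for RNA 1 and 0.664 for RNA K. The median gap between dyes, taken between single arrays, was 0.34 in RNA 1 and 0.42 in RNA K. The gap of 0.21 between the RNAs is taken between means of 2 arrays, which narrows it, so that these widths are not like measures. The dye gaps of the RNAs correlated at r = 0.431 over 5115 features. Of 4380 features of 1 gene with all 8 spots 2976 had a dye gap of the same sign in both RNAs. The array of RNA K with kidney in Cy3 had the fewest spots with a ratio and the lowest correlation between duplicate spots, and without it 2055 features were called. Without the array of RNA 1 with kidney in Cy5 there were 2215.

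**Figure D3:**
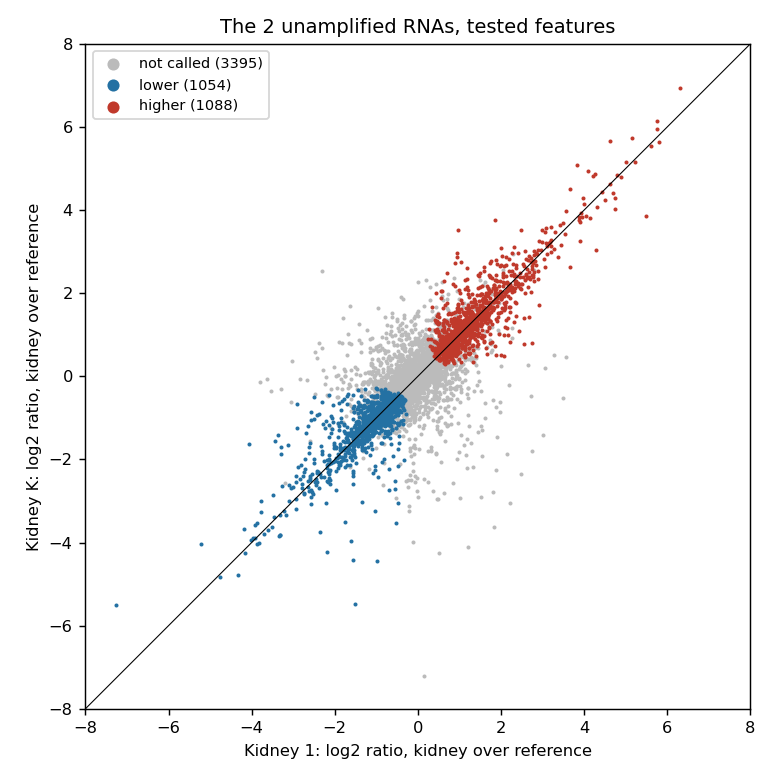
Mean log2 ratio of kidney over reference in RNA 1 (horizontal axis) and RNA K (vertical axis) for the 5537 tested features, coloured by call, with the line of equality. The called features lie along the line at both ends (1088 higher and 1054 lower), and r is 0.814 over all features.

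Among features of 1 gene with all 8 spots, the 3 widest gaps between the RNAs were those of RASGEF1A, SIRPA and TRIB3, none of them called. RASGEF1A, an exchange factor for Ras-family proteins, had -2.79 and -2.90 in RNA 1 against 1.34 and -1.49 in RNA K. SIRPA, a receptor of macrophages, had -0.41 and -4.16 in RNA 1 against 1.56 and -1.23 in RNA K. TRIB3, a stress-induced pseudokinase, had -0.53 and -0.54 in RNA 1 against -2.44 and -3.40 in RNA K. For TRIB3 the RNAs did not overlap, and its other clone was called lower at -1.74. For RASGEF1A and SIRPA the 2 dyes of RNA K differed as widely as the RNAs. The widest dye gaps of equal sign in both RNAs were those of ZNHIT3, PUS1 and PAG8. ZNHIT3, a zinc finger protein of small nucleolar RNP assembly, read -3.32 and -3.98 with kidney in Cy3 and 1.56 and 0.80 with kidney in Cy5, so that its call (mean -1.24, adjusted p 0.00459) averages values of opposite sign. PUS1, a pseudouridine synthase, and PAG8, a pregnancy-associated glycoprotein, were not called, with means of 0.44 ± 1.34 and -0.95 ± 1.38.

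Round 0 was then set against the mean of the amplified rounds in the same fit, which asks which ratios differed between unamplified and amplified kidney RNA. Of 5537 features 1068 differed (19.3%), with 641 higher at round 0 than after amplification (11.6%) and 427 lower (7.71%). Without centring 659 were higher and 77 lower, with a median of all differences of 0.48. Leaving out RNA 1 at round 0 left 299 calls and leaving out RNA K 243, and without the round 1, RNA 1 array with kidney in Cy3, whose column holds numbers that are no log ratios, there were 677. Across features the round 0 mean and the amplified mean correlated at r = 0.630, with the reference in common. Of the 1068 features 683 were also called against the reference at round 0, where 38.7% of all features were called. Both calls use the same round 0 mean from 1 fit, so that this overlap is partly built in. Of the 1068, 645 (60.4%) lay farther from 0 at round 0 than after amplification, against 3031 (54.7%) of all features. Opposite signs were seen for 602, which a called difference favours, and their share over all features was not taken. The deposited values of all round 0 arrays have 3 decimals in every cell, whereas 83.2% to 88.2% of cells do on the amplified arrays, and a difference in processing cannot be told apart from the round.

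Features picked as farthest from the reference at round 0 are tilted towards a larger ratio there than after amplification, so that the following values are a description. GPX3 stood at 6.32 and 6.93 in RNAs 1 and K at round 0, against a lowest, median and highest of 1.33, 3.43 and 4.78 in the 6 amplified RNAs. No amplified RNA reached either unamplified value (difference 3.46 ± 0.44, SE, adjusted p 0.00576). MGP stood at 5.81 and 5.63 at round 0, against 3.44, 3.85 and 4.55, again without overlap (difference 1.78 ± 0.20, SE, adjusted p 0.00456). ENPEP had 5.603 and 5.55 at round 0, against 4.96, 5.31 and 5.49 after amplification. Its round 0 values were above all 6 amplified values by a narrow margin, and the difference of 0.31 ± 0.19 (SE) was not called (adjusted p 0.293).

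**Figure D4:**
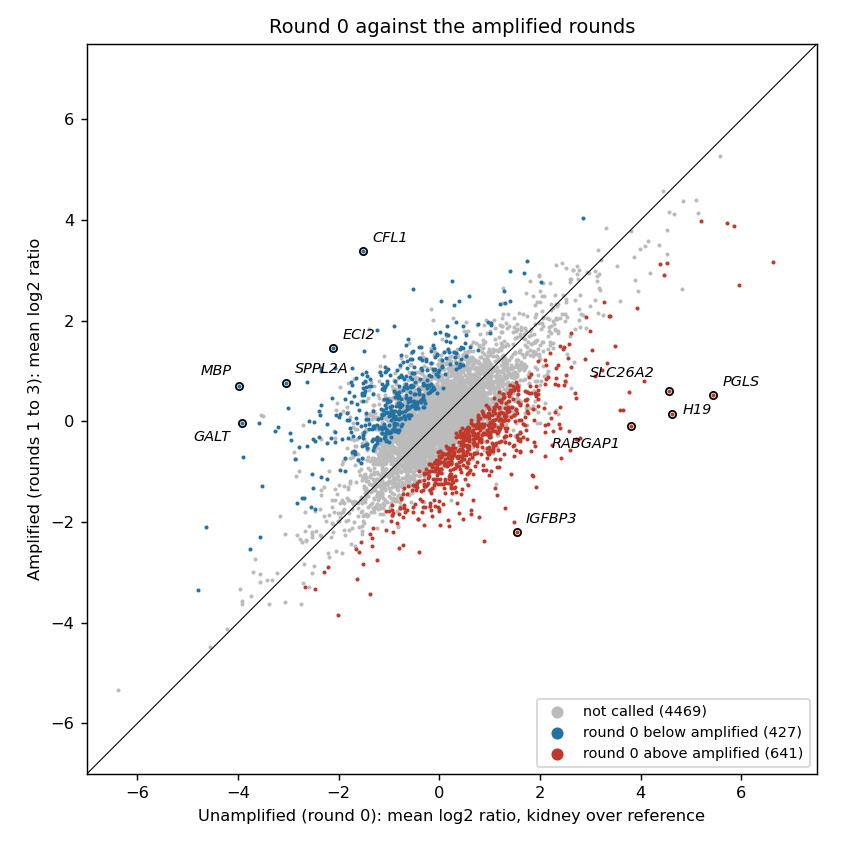
Mean log2 ratio of kidney over reference at round 0 (horizontal axis) and in rounds 1 to 3 (vertical axis) for the 5537 tested features, coloured by the call of their difference, with the line of equality and the 10 named features circled. PGLS, H19, SLC26A2 and RABGAP1 lie far to the right near an amplified ratio of 0, and CFL1 lies alone at the upper left.

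The largest differences belonged to features that left the array median in unamplified RNA but not, or on the opposite side, in amplified RNA. PGLS had 5.15 and 5.74 at round 0, against a lowest, median and highest of 0.36, 0.58 and 0.62 in the 6 amplified RNAs, a difference of 4.91 ± 0.21 (SE, adjusted p 0.000347). Its other clone behaved otherwise, with a mean of -0.52 at round 0, not called against the reference, and 0.71 after amplification. H19 had 4.62 and 4.63 at round 0, against -0.03, 0.14 and 0.32, and its second clone averaged 3.93 at round 0 against 2.25. For both clones the difference was called. SLC26A2 had 4.26 and 4.88 at round 0, against -0.71, 0.38 and 2.39, so that the amplified RNAs differed among themselves by more than the unamplified ones did.

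RABGAP1, which acts on Rab GTPases, had 3.87 and 3.76 at round 0, against -0.71, -0.01 and 0.23. IGFBP3, a binding protein of insulin-like growth factors, lay on opposite sides, with 1.73 and 1.34 at round 0 against -2.81, -2.16 and -1.67. Like the other features of largest difference, both were picked among those whose unamplified and amplified RNAs did not overlap, which is therefore no finding. Other clones of RABGAP1 and IGFBP3 read otherwise. The second clone of RABGAP1 averaged 0.45 at round 0 and 0.39 after amplification, a difference that was not called. Those of IGFBP3 averaged 1.16 and 3.40 at round 0, against 0.54 and 2.10 after amplification, above the array median in both, and only for the clone at 3.40 was the difference called. Other members of the lists with large differences were FOSB (2.68 and 2.90 at round 0 against -0.77, -0.22 and -0.10), 1 clone of SNRNP70 (2.67 and 2.50 against -0.70, -0.24 and 0.31) and TRAP1 (1.57 and 1.65 against -1.03, -0.56 and -0.44). These 3 were chosen after their values were seen.

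Lower at round 0 was first of all CFL1, cofilin, which severs actin filaments. It had -1.47 and -1.56 at round 0, against 3.02, 3.35 and 3.68 in the amplified RNAs, a difference of -4.89 ± 0.17 (SE, adjusted p 0.000224). The groups lay on opposite sides of the array median, and all 4 round 0 arrays were between -1.79 and -1.29. The low MBP clone had -4.003 and -3.95 at round 0, against -1.37, 1.24 and 2.54, with a wide spread after amplification. ECI2 had -2.19 and -2.02 at round 0 for its low clone, against 1.14, 1.45 and 1.73. GALT, of galactose metabolism, had -4.18 and -3.68 at round 0, from the Cy3 arrays alone, against -0.75, 0.05 and 0.25. SPPL2A, an intramembrane protease, had -2.36 and -3.75 from 3 arrays, against -0.01, 0.69 and 1.70.

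By list, the called differences between round 0 and the amplified rounds ran mainly upward for splicing factors and hnRNPs, with 20 higher and 4 lower of 70, where 11.6% of all features were higher and 7.71% lower. The loop of Henle and distal nephron had 6 higher and 0 lower of 28, and early response and stress genes 14 and 7 of 75. Fatty acid oxidation had 0 higher and 3 lower of 24, among them the low features of HADHA and ECI2. The proximal tubule had 1 higher and 3 lower of 11, the lower ones including SLC7A7, with means of 2.85 at round 0 and 4.05 after amplification. Cytosolic ribosomal proteins had 4 higher and 4 lower of 56, and cell cycle genes 0 higher and 2 lower of 32. These differences share the centring of each array with the ratios above, and no test of a list was made.

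Several clones of a gene gave a check on single features. Of the 4360 genes 905 had more than 1 tested feature, 1988 features in all. In the 756 genes with exactly 2, the clones correlated at r = 0.605 at round 0 and differed by a median of 0.41. Where several clones of a gene were called, 202 of 233 genes had them all in the same direction and 31 in opposite directions. The widest gap was that of MBP, with a low clone at -3.98, a high clone at 2.02 ± 0.05 and another at 0.78 that was not called. STC1, the hormone stanniocalcin-1, had clones at 3.66 ± 0.89, 0.01 and -2.002 ± 0.18, the first and last called, and RNPEPL1, an aminopeptidase-like protein, at 1.61 ± 0.16, -1.09 and -2.50 ± 1.34, again the first and last called. The low RNPEPL1 clone had values on the Cy5 arrays alone. The sequences of the clones were not used here.

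**Figure D5:**
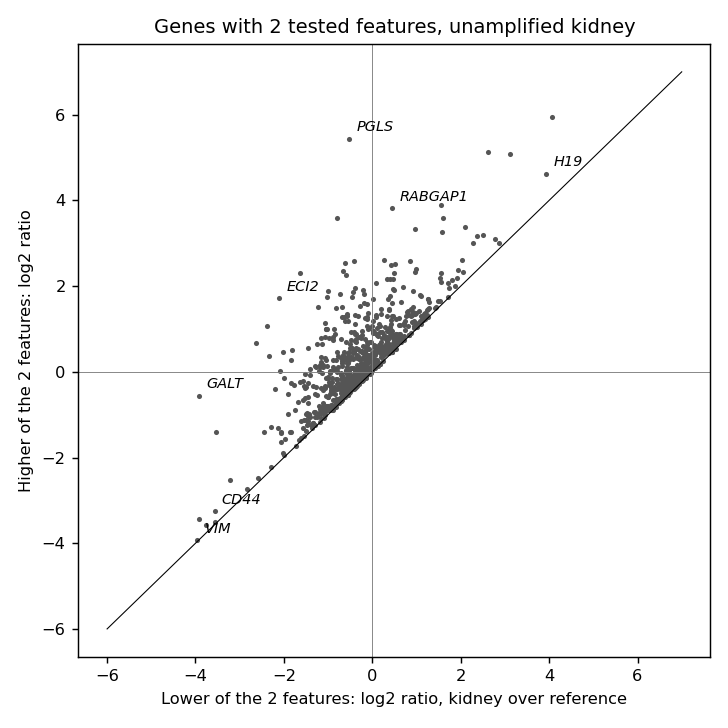
Log2 ratio of kidney over reference at round 0 for the lower (horizontal axis) and the higher (vertical axis) of the 2 clones of each of 756 genes, with the line of equality. VIM, CD44 and H19 lie near the line, PGLS and ECI2 far from it, and across all pairs the clones differed by a median of 0.41.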

How the data were processed

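The values are the authors' deposited ratios of 2 dyes from a custom bovine cDNA array that the labels describe as holding 7,872 clones. Per the labels' protocols target was made as amino-allyl cDNA. Of the 16 arrays, 15 hold log2 ratios as deposited, and the column for replicate 1 of round 1 with kidney in Cy3 is called a score, because the deposited numbers include some that are no log ratios. What scanner, background correction or normalization was used is not stated in the sources at hand. The recurring number 16.61, which is log2 of 100000, and everything beyond 10 in size were treated as missing.

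From there the Cy3 arrays were turned, the 16896 spots were averaged as 8448 features in duplicate, the median of the listed features was subtracted from each array, and the 2 dyes of an RNA were averaged. The annotation names a gene for 5693 features, 5598 with 1 symbol and 95 with several, and leaves 2755 without one. Of these, 5591 matched RefSeq (ARS-UCD2.0) by gene ID with the same symbol. Tested were the 5537 listed features, of 4360 genes, that were measured in both replicates at each round.

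limma 3.58.1 (R 4.3.3, data.table version 1.17.8) fitted a mean per round to the 8 kidney RNAs, with 4 residual and 2.4 prior degrees of freedom, so that the spread of the 2 round 0 RNAs is pooled with that of the other rounds. The round 0 mean was tested against 0 and against the mean of rounds 1 to 3, with Benjamini-Hochberg adjustment over all tested features and a threshold of 0.05. The fit was tested on simulated data. Signal intensities were not used, so that dim spots were not filtered, and precision is limited by how many arrays there are.

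Named are the 12 called features farthest from 0 each way among those of 1 symbol with equal sign on 4 arrays, the 3 largest called each way of each of 29 lists (or the member with the smallest p), the 5 largest differences from the amplified rounds each way without overlap, the 3 genes with the widest gap between opposed clones, and the 3 widest gaps each between RNAs and between dyes. Other list members in the text were chosen after their values were seen. The members and lists were chosen with earlier results of these data known. Alternatives changed the centring, scaling, features, arrays, dyes, replicates and fit.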

Additional observations from a re-analysis of the deposited data

Results flagged for a closer look

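On 12 of 130 named features with a value on every round 0 array, a single array lay far from the other 3 by Dixon's test. The usual rate of about 1 in 20 holds for independent values that were not picked. These features were mostly picked on the same values, and the arrays share RNAs and dyes, so that rate is no yardstick here. In RNA 1 with kidney in Cy5 these were TCAM1 (-9.34), ANXA8L1 (-6.35), ME1 (-4.63), KRT18 (-3.38), CCT3 (-1.002) and CPT1A (2.40). In RNA K with kidney in Cy3 they were GATA3 (7.07), SLC26A2 (5.55) and MSRA (2.77). In RNA 1 with kidney in Cy3 they were PCLAF (-3.75) and SLC1A3 (-3.61), and in RNA K with kidney in Cy5 MRPL11 (0.57). The gap was wide for TCAM1, whose other arrays ran from -5.56 to -5.19, and narrow for CPT1A, whose others ran from 2.29 to 2.30. Of 5 measures of whole arrays, 0 stood apart in this way.

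Ratios at round 0 and in the amplified rounds differed, by the limma contrast and without overlap of the RNAs, most widely for 10 features. Round 0 minus the amplified mean was 4.91 for PGLS, 4.47 for H19, 3.96 for SLC26A2, 3.91 for RABGAP1 and 3.73 for IGFBP3. It was -4.89 for CFL1, -4.68 for MBP, -3.90 for GALT, -3.83 for SPPL2A and -3.56 for ECI2. GALT had no round 0 value with kidney in Cy5, and other clones of several of these genes gave other ratios at round 0. These were -0.52 for PGLS, 0.45 for RABGAP1, 2.02 and 0.78 for MBP, -0.56 for GALT and 1.73 for ECI2, and for IGFBP3 a clone at 3.40 beside those at 1.54 and 1.16.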

How the results depend on the processing

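The count of 2142 features called against the reference lay between 1545 and 2673 under the alternatives other than leaving out an RNA, which gave 977 to 1047. The 1068 differences from the amplified rounds fell to 243 to 299 when a round 0 RNA was left out, to 600 (293 higher and 307 lower) with the Cy5 arrays alone and to 677 without the round 1, replicate 1, Cy3 array, and 1606 were called when 16 arrays were fitted with a dye term and the RNA as a random block. With a replicate block the counts were 2149 and 982. Pairing of RNAs by number was not shown, since deviations of replicate 1 correlated above 0.1 in 1 of 6 pairs of rounds. Signs of named features turned in 11 cases, and the cause was not tested. Without centring ATP5IF1 became 0.033 and NDUFB8 0.070, the array median having moved by 0.65. SIRPA became 0.57 in Cy3, and was 0.16 without replicate 1 and -2.29 without K. ZNHIT3 became 1.18 in Cy5. PUS1 became -1.45 in Cy5, -0.043 with values up to 6 and -0.38 without the K, Cy3 array, which was left out after seeing the data, and ran from -0.51 to 1.39 when an RNA was left out. PAG8 became 0.66 in Cy3 and ran from -1.93 to 0.024 without an RNA. Of 2269 values of named features under alternatives 2115 kept direction and call, 129 lost the call and 14 gained one. Spots have no signal here, so that dim ones cannot be told from bright ones.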
